A study of Rattus norvegicus with 8 samples.

Results

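Transcripts for lysosomal hydrolases and lysosomal membrane proteins were examined in rat sciatic nerve allografts and in unoperated nerves. The genes were listed by symbol, 42 in all, and a listed gene was kept when it had a normalized count above 0 in any library. Of the 42, 41 were found among the 32545 genes of the table, each under 1 Ensembl identifier, and the symbol Sgsh was not matched. Members were thus chosen by symbol and by detection alone, and the lowest value of any member was 16.3 normalized counts (13 reads), for Atp6v0d2 in an unoperated nerve. All 41 passed the filter on low values, a minimum of 10 normalized counts in 2 or more libraries, and so were among the 16478 genes tested. Because the list was drawn up with earlier results of these data known, its counts are given as a description beside the same share of all genes tested.

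RNA was sequenced from 3 peripheral nerve allografts (PNAs) joined to the host nerve by a protocol that includes polyethylene glycol (PEG-fused PNAs), 3 negative control PNAs that were operated on without PEG (NC PNAs) and 2 unoperated sciatic nerves (Unop nerves). Grafts of both kinds were taken at 14 days after the operation. The rats were female outbred Sprague Dawley (Envigo) of 3 to 6 months, hosts and donors were neither tissue matched nor immunosuppressed, and grafts of both kinds, with the host nerve ends, were washed in hypotonic Plasmalyte A and methylene blue. Unop nerves were not operated on, so they differ from both graft groups in surgery as well as in tissue origin. A graft holds cells of the donor and of the host, and muscle and connective tissue adhere to the outside of NC PNAs, so each library is a mixture of cell types. Between 32472925 and 39959620 reads fell on genes per library, and every member had at least 13 reads in every library.

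Lysosomes are acid compartments in which proteins, glycans, sulfated glycosaminoglycans and lipids delivered by endocytosis, phagocytosis and autophagy are broken down. Soluble hydrolases act in the lumen, a proton pump keeps the lumen acid, and glycosylated membrane proteins line the boundary. In injured nerve, Schwann cells and macrophages take up and digest myelin, whose glycolipids and sphingomyelin need the hydrolases described here, and inherited loss of Galc or Arsa causes a demyelinating leukodystrophy.

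Lysosomal transcripts took 3.19%, 3.16% and 3.59% of all reads on genes in the 3 PEG-fused PNAs. The share was 2.03%, 2.41% and 2.56% in the 3 NC PNAs, and 0.925% and 0.877% in the 2 Unop nerves. Every PEG-fused PNA was thus above every NC PNA, and every NC PNA above both Unop nerves. A large part of each share came from 3 genes, Ctsb, Ctsd and Psap. Together these took 1.85% ± 0.16 (SD, n = 3) of reads in PEG-fused PNAs and 1.14% ± 0.16 (n = 3) in the NC PNAs. In the Unop nerves they took 0.317% ± 0.005 (n = 2). Among the roles, cathepsins and peptidases took the largest share in each group, at 1.87% ± 0.18 (SD, n = 3) of reads in PEG-fused PNAs, 1.13% ± 0.15 (n = 3) in the NC PNAs and 0.335% ± 0.040 (n = 2) in the Unop nerves.

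**Figure D1:**
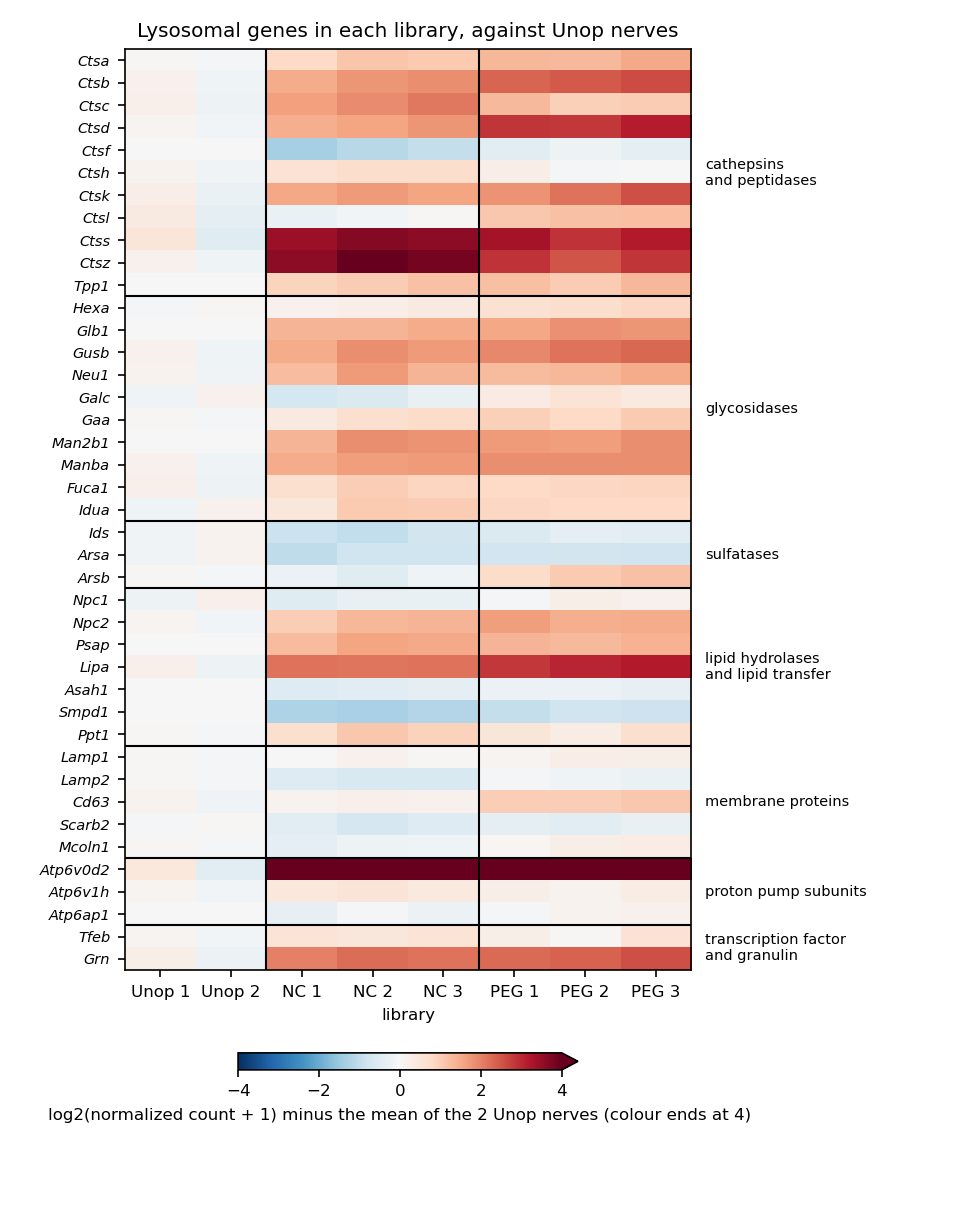
Level of each lysosomal gene (rows, by role) in each library (columns), as log2(normalized count + 1) minus the mean of the 2 Unop nerves, with the colour scale ending at 4. The row of Atp6v0d2 is at the dark red end of the scale in all 6 grafts. Most cathepsins, glycosidases and Lipa are red in both graft groups, and Smpd1, Arsa, Ids and Scarb2 are blue in both.

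The first question was whether lysosomal transcripts differ between grafts joined with PEG and grafts joined without it. In PEG-fused against NC PNAs, 19 of the 41 genes (46.3%) were higher and 3 (7.32%) were lower at an adjusted p under 0.05 by limma, where 15% of all genes tested were higher and 13.9% lower. The median log2 fold change of the 41 genes was 0.32, beside 0.0017 over all genes tested. Most of these differences were small, since 3 genes were higher past a fold of 2 (4.41% of all genes were) and 1 was lower (7.14% were). In 26 of the 41 genes every PEG-fused PNA was above every NC PNA, and in 5 every PEG-fused PNA was below, beside 25.6% and 23.3% of all genes. With fewer libraries the calls fell among the 41 genes and among all genes. Higher were 10 of the 41 without PEG-fused PNA 3 (9.69% of all genes) and 11 without PEG-fused PNA 2 (8.27%). Fewer were also called without NC PNAs 1 and 3, in which skeletal muscle genes were high. Only NC PNA 2 is then left, with its spread taken from the other groups, so no count is given. Of the 19 genes called higher, 9 were called in each of 19 fits (Galc, Cd63, Hexa, Arsb, Smpd1, Ctsl, Lipa, Ctsf and Ctsd) and the other 10 lost the call in at least 1. Over the same grafts, the summed level of 14 macrophage genes was lower in every PEG-fused PNA (312823 to 405525 normalized counts) than in every NC PNA (672521 to 902546). By gene, 9 of the 14 were called lower (13.9% of all genes were) and 5 were not called, Cd68 among them. The part of macrophages in the difference was not tested.

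Of the 11 cathepsins and peptidases, 5 were higher in PEG-fused than in the NC PNAs, 3 were lower and 3 were not called. Of all genes tested, 15% were higher and 13.9% lower. Ctsd (ENSRNOG00000020206) encodes cathepsin D, the main aspartic protease of the lysosome, and had the largest log2 fold change of the 41 genes between the grafts. Its normalized counts were 189489, 186136 and 231298 in the PEG-fused PNAs, 70656, 76971 and 88094 in the NC PNAs, and 27996 and 24095 in the Unop nerves. The 3 groups did not overlap, and PEG-fused PNAs were higher than NC PNAs by a log2 fold change of 1.36 ± 0.17 (SE; adjusted p = 0.00124, limma), a 2.57-fold difference.

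Ctsl (ENSRNOG00000018566) encodes cathepsin L, a cysteine endopeptidase. It was counted 32373, 35086 and 35930 times in PEG-fused PNAs, 12905, 14245 and 16052 times in the NC PNAs, and 19831 and 12085 times in the Unop nerves, after normalization. PEG-fused PNAs stood above all other nerves, while NC PNAs and Unop nerves overlapped. The log2 fold change of PEG-fused over NC PNAs was 1.26 ± 0.18 (adjusted p = 0.0021, limma), and that of NC PNAs over Unop nerves was -0.11, with a 95% interval of -0.57 to 0.35.

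Ctsb, Ctsf and Ctsa were also higher in PEG-fused than in the NC PNAs, with log2 fold changes of 0.76, 0.77 and 0.40. Ctsb (cathepsin B, a cysteine protease) was at 201002, 220858 and 244002 normalized counts in PEG-fused PNAs against 112205, 137761 and 144336 in the NC PNAs and 44737 and 35984 in the Unop nerves. It was called in 16 of 19 fits, with adjusted p up to 0.131, and Ctsa in 8 of 19, with adjusted p up to 0.275. Ctsk, which encodes the collagen-degrading cathepsin K, was at 12812, 16612 and 21805 in PEG-fused PNAs and at 10772, 11928 and 10915 in the NC PNAs, and missed the threshold (log2 fold change 0.58, 95% interval 0.11 to 1.04, adjusted p = 0.0674, limma).

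The 3 cathepsins that were lower were Ctsz, Ctsc and Ctsh. Ctsz (ENSRNOG00000050697), which encodes the carboxypeptidase cathepsin Z, had 13364, 10411 and 13217 normalized counts in PEG-fused PNAs, 21781, 29572 and 25614 in the NC PNAs and 2066 and 1600 in the Unop nerves. The NC PNAs were highest, the PEG-fused PNAs lay between, and no groups overlapped. The log2 fold change of PEG-fused against NC PNAs was -1.06 ± 0.16 (adjusted p = 0.00248, limma), and it was called in each of 19 fits, although without PEG-fused PNA 2 or without NC PNA 2 it no longer passed a fold of 2.

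Ctsc encodes cathepsin C (dipeptidyl peptidase 1), which activates serine proteases of immune cell granules. Its normalized counts were 11927, 9463 and 9964 in PEG-fused PNAs, 15359, 18235 and 21071 in the NC PNAs, and 5672 and 4211 in the Unop nerves, again without overlap. It was lower in PEG-fused than in the NC PNAs by a log2 fold change of -0.80 ± 0.16 (adjusted p = 0.00821, limma), and Ctsh (cathepsin H, an aminopeptidase) by -0.59 ± 0.13 (adjusted p = 0.0122, called in 17 of 19 fits). Ctss, the cathepsin of antigen-presenting cells that trims the MHC class II invariant chain, had 32389, 23737 and 29113 counts in PEG-fused and 34849, 41530 and 38701 in the NC PNAs, and was not called (log2 fold change -0.44, 95% interval -0.97 to 0.09).

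**Figure D2:**
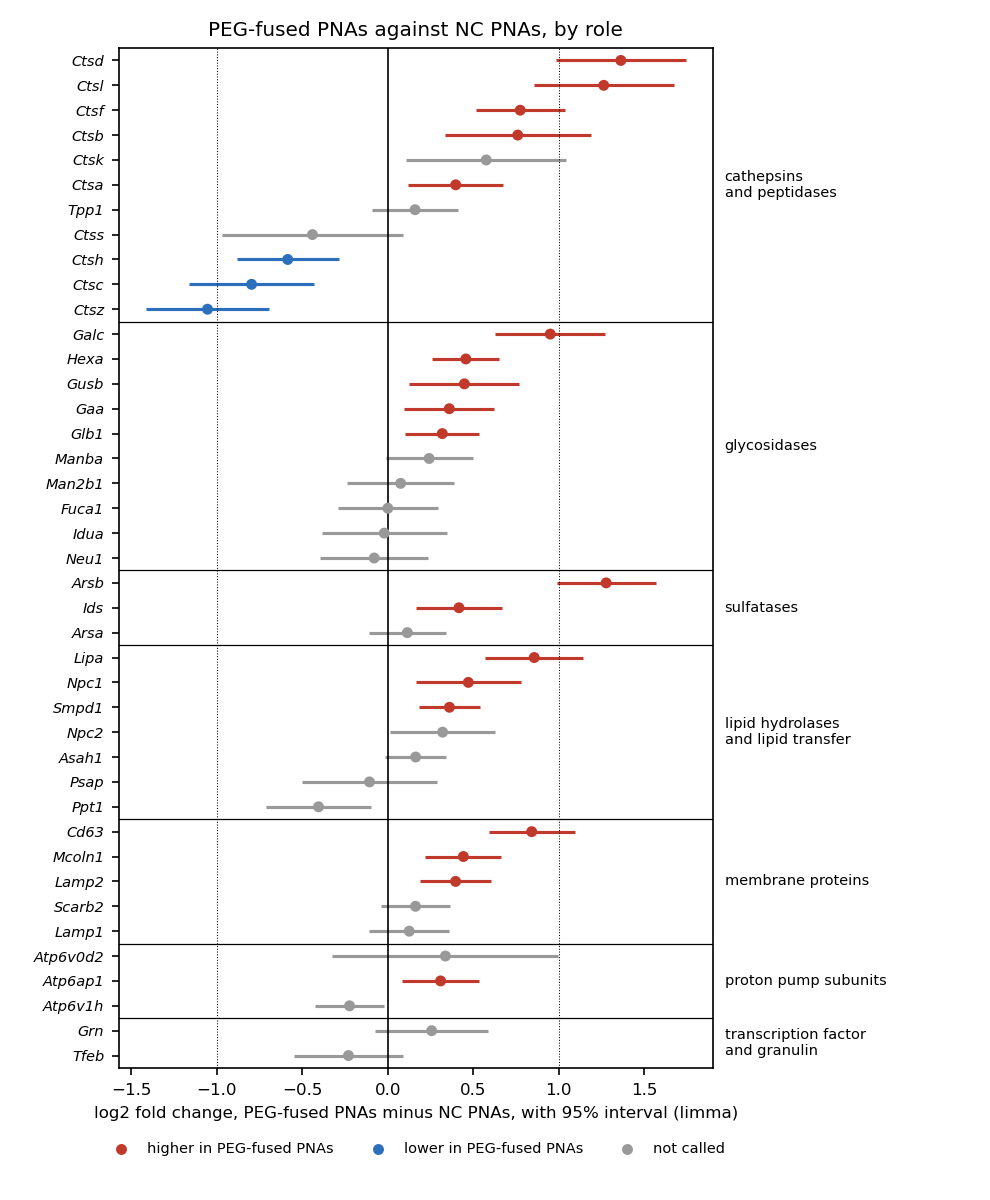
Log2 fold change of PEG-fused over NC PNAs for the 41 genes, in order within each role, with 95% intervals from limma and dotted lines at -1 and 1. Ctsd, Ctsl and Arsb lie beyond 1 and Ctsz beyond -1, and the genes called lower (blue) are all cathepsins.

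Glycosidases cleave sugars from glycoproteins, glycolipids and glycosaminoglycans. In PEG-fused against NC PNAs 5 of 10 were higher (15% of all genes tested were) and 5 were not called, with a median log2 fold change of 0.28. Galc (galactosylceramidase), which degrades the myelin lipid galactosylceramide, differed most. Its normalized counts were 1060, 1242 and 1112 in PEG-fused PNAs, 519, 566 and 690 in the NC PNAs, and 756 and 954 in the Unop nerves. The Unop nerves thus lay between the graft groups without overlap, and the log2 fold change of PEG-fused over NC PNAs was 0.95 ± 0.14 (adjusted p = 0.00238, limma). The others called higher were Hexa (0.46), Gusb (0.45), Gaa (0.36) and Glb1 (0.32), which encode a subunit of β-hexosaminidase, β-glucuronidase, acid α-glucosidase and acid β-galactosidase. Hexa was called in each of 19 fits, Gusb and Glb1 in 12 each (adjusted p up to 0.348 and 0.132) and Gaa in 8 (up to 0.165). The lowest log2 fold change was that of the sialidase Neu1, at 1264, 1319 and 1479 in PEG-fused PNAs and 1258, 1716 and 1350 in the NC PNAs, which overlapped (log2 fold change -0.08, 95% interval -0.40 to 0.24).

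Sulfatases remove sulfate from glycosaminoglycans and sulfatide. Of the 3 measured, 2 were higher in PEG-fused than in the NC PNAs (15% of all genes tested were). Arsb (ENSRNOG00000011150), arylsulfatase B, acts on dermatan and chondroitin sulfate. It had 6922, 8524 and 9285 normalized counts in PEG-fused PNAs, 3526, 2980 and 3663 in the NC PNAs, and 4266 and 4066 in the Unop nerves. PEG-fused PNAs were above every other nerve, by a log2 fold change of 1.28 ± 0.13 over NC PNAs (adjusted p = 6.31e-04, limma). Ids, the iduronate sulfatase, was higher by 0.42 ± 0.11 (adjusted p = 0.0247) and was called in 15 of 19 fits. Arsa (arylsulfatase A), which desulfates the myelin lipid sulfatide, was at 1946, 1975 and 1895 in PEG-fused PNAs and at 1612, 1893 and 1883 in the NC PNAs, and was not called (0.11, 95% interval -0.11 to 0.34).

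Of the 7 genes for lipid hydrolysis and lipid transfer, 3 were higher in PEG-fused than in the NC PNAs and 4 were not called. Of all genes tested, 15% were higher. Lipa encodes the acid lipase that frees cholesterol from cholesteryl esters, and it had 13382, 15557 and 17148 normalized counts in PEG-fused PNAs, 8580, 8305 and 8445 in the NC PNAs, and 2156 and 1652 in the Unop nerves. The groups did not overlap, and the log2 fold change of PEG-fused over NC PNAs was 0.86 ± 0.13 (adjusted p = 0.00229, limma). Npc1, which exports cholesterol through the lysosomal membrane, was higher by 0.47 (called in 13 of 19 fits) and Smpd1 (acid sphingomyelinase) by 0.36. At the other end was the thioesterase gene Ppt1, with 7439, 6550 and 8358 counts in PEG-fused and 8277, 11313 and 10111 in the NC PNAs (log2 fold change -0.41 ± 0.13, adjusted p = 0.0539, limma).

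Among the 5 membrane protein genes, Cd63, Mcoln1 and Lamp2 were higher in PEG-fused than in the NC PNAs (15% of all genes tested were). The last 2 were called in 17 of 19 fits each. Cd63, a tetraspanin of late endosomes and exosomes, had 49009, 49136 and 51606 normalized counts in PEG-fused PNAs, 27278, 28367 and 27906 in the NC PNAs, and 27057 and 22467 in the Unop nerves. PEG-fused PNAs stood apart from both other groups (0.84 ± 0.11 over NC PNAs, adjusted p = 0.0015, limma). Lamp1, the abundant membrane glycoprotein commonly used as a lysosome marker, had 27168, 30164 and 29590 counts in PEG-fused PNAs, 25215, 28567 and 25954 in the NC PNAs, and 25869 and 24352 in the Unop nerves. It was the 1 member called in none of the 3 comparisons, and its log2 difference between the grafts was 0.13 (95% interval -0.11 to 0.36).

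The proton pump was represented by 3 genes, of which the accessory subunit gene Atp6ap1 was higher in PEG-fused than in the NC PNAs (0.31 ± 0.10, adjusted p = 0.0472, limma). That call held in 8 of 19 fits, with adjusted p up to 0.386. Atp6v0d2, the membrane sector subunit known from osteoclasts and macrophages, had 436, 471 and 782 normalized counts in PEG-fused and 417, 503 and 379 in the NC PNAs, and the groups overlapped (0.34 ± 0.29). For Atp6v1h, of the cytosolic sector, the counts were 2684, 2519 and 2809 in PEG-fused and 3054, 3288 and 3014 in the NC PNAs (-0.22 ± 0.09, adjusted p = 0.0884, limma).

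Tfeb encodes the transcription factor that activates many lysosomal genes. It had 928, 820 and 1176 normalized counts in PEG-fused PNAs, 1148, 1081 and 1164 in the NC PNAs and 855 and 729 in the Unop nerves, and PEG-fused over NC PNAs gave a log2 fold change of -0.23 (95% interval -0.55 to 0.09). Transcript level does not show where the factor is in the cell, which is how Tfeb is mainly controlled. Grn, the gene of the lysosomal glycoprotein progranulin, was at 31245, 33463 and 38679 in PEG-fused and 26401, 30532 and 29435 in the NC PNAs, and was not called either (0.26, 95% interval -0.07 to 0.59).

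**Figure D3:**
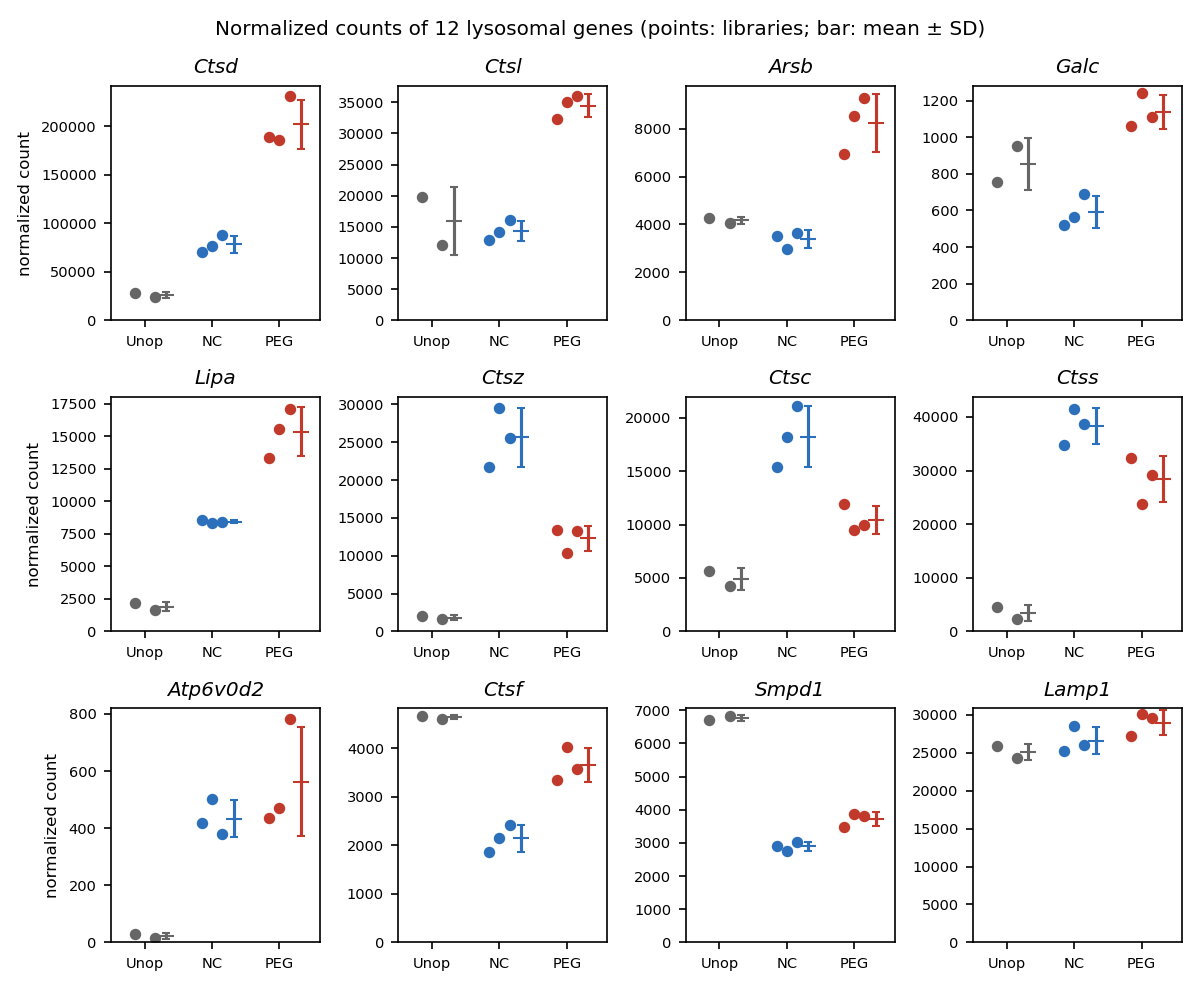
Normalized counts of 12 lysosomal genes in each library (points), with the mean and SD of each group beside them (Unop n = 2, NC n = 3, PEG n = 3), each axis starting at 0. PEG-fused PNAs are highest for Ctsd, Ctsl, Arsb, Galc and Lipa, NC PNAs for Ctsz, Ctsc and Ctss, and Unop nerves for Ctsf and Smpd1, while Lamp1 differs little.

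Promoters of the members were read next, because Tfeb and its relatives bind an E-box with the core CACGTG. RefSeq promoters of the GRCr8 assembly, 250 bases before to 50 after each start site, were found for 33 of the 42 listed genes. The palindrome CACGTG, which reads the same on both strands, occurred in 10 of these 33 promoters (30.3%) and in 6.42% of all 33469 promoters. Among genes tested here that have a promoter in the table, it was in 9 of 32 members and in 9.27% of all 11293. The longer palindrome TCACGTGA, which contains it, occurred in 4 of 33 (Ctsd, Galc, Lamp1 and Mcoln1) and in 0.777% of all promoters.

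Stretches ending at the base before the start site are shown for 4 genes, with CACGTG in capitals. Ctsd (chr1:206968822-206968991, minus strand) and Galc (chr6:123245560-123245619, minus strand) were among the genes that differed most between the graft groups. Lamp1 (chr16:83075064-83075263, minus strand) held the most copies, 5, and was called in no comparison. Mcoln1 (chr12:6358233-6358257, plus strand), the gene of a lysosomal calcium channel, held 1 copy before and 1 after its start site.
Ctsd: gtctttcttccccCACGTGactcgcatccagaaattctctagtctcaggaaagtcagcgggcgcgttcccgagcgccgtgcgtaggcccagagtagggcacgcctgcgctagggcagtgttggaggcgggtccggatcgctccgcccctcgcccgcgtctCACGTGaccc
Galc: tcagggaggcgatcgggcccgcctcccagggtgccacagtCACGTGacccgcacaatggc
Lamp1: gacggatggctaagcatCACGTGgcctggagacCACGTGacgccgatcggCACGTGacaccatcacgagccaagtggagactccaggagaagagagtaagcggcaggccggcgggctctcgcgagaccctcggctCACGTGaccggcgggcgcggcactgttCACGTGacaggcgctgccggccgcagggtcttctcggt
Mcoln1: tgtCACGTGttcgacccaggcgccc

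The copy nearest to the start site began 10 bases before it in Ctsd and 20 bases before it in Galc, each within TCACGTGA. Of the 9 measured members whose promoter held CACGTG, 7 were higher in PEG-fused than in the NC PNAs, namely Cd63, Ctsd, Ctsf, Gaa, Galc, Glb1 and Mcoln1. The calls of Gaa, Glb1 and Mcoln1 were lost in some of the 19 fits. Of the 23 measured members with a promoter without it, 9 were higher and 3 lower. In PEG-fused PNAs against Unop nerves, 6 of the 9 were higher and 1 lower, and 15 of the 23 were higher and 3 lower. In NC PNAs against Unop nerves, 4 of the 9 were higher and 2 lower, and 16 of the 23 were higher and 4 lower. Over all genes tested with a promoter, 15.1% of the 1047 with CACGTG and 15.7% of the 10246 without it were higher between the grafts. The shares higher than in the Unop nerves were 30.8% and 30.1% in PEG-fused PNAs and 33.7% and 32.8% in the NC PNAs. These are matches of letters and not measured binding, and no test of them was made.

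The second question was how each kind of graft differs from nerve that was never operated on. Both comparisons share the 2 Unop nerves. Against these, 27 of the 41 genes were higher in PEG-fused PNAs and 6 were lower (29.1% and 28.6% of all genes tested), and 26 were higher in the NC PNAs and 8 were lower (32.2% and 32.3% of all genes). Past a fold of 2, 20 genes were higher in PEG-fused PNAs (16.7% of all genes) and 17 in the NC PNAs (19.6% of all genes). Lower past a fold of 2 by limma were 0 genes in PEG-fused PNAs (15.6% of all genes), with 0 at an unadjusted p under 0.05, 0 by edgeR and 0 by DESeq2, and 2 in the NC PNAs (19% of all genes). Median log2 fold changes were 0.97 in PEG-fused and 0.83 in the NC PNAs, beside 0.013 and 0.022 over all genes tested. The macrophage sum was also higher in every graft than in both Unop nerves, and its part in these differences was not tested.

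Of the 41 genes, 23 were higher than in the Unop nerves in both graft groups. In the single comparisons 29.1% (PEG-fused PNAs) and 32.2% (NC PNAs) of all genes tested were higher. The share of all genes in this and the other joint classes below was not counted. Among the 23, 8 were highest in PEG-fused PNAs by the test between the grafts (Ctsa, Ctsb, Ctsd, Gaa, Glb1, Gusb, Hexa and Lipa), 2 were highest in the NC PNAs (Ctsc and Ctsz), and 13 were not called between the grafts. Ctsl, Arsb and Cd63 were higher in PEG-fused PNAs than in both other groups and not called between NC PNAs and Unop nerves. Galc alone was higher than in the Unop nerves in PEG-fused PNAs and lower in the NC PNAs. The log2 fold changes were 0.42 ± 0.16 (adjusted p = 0.0477, limma) and -0.53 ± 0.16 (adjusted p = 0.0166). The call in PEG-fused PNAs held in only 12 of 19 fits and that in the NC PNAs in 18 of 19.

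The rise over Unop nerves was steepest for Atp6v0d2, from 30 and 16.3 normalized counts in the Unop nerves to 379 or more in every graft. Its log2 fold change was 4.56 ± 0.32 in PEG-fused PNAs (adjusted p = 1.08e-05, limma) and 4.22 ± 0.32 in the NC PNAs (adjusted p = 1.05e-05). Next in PEG-fused PNAs came Ctss (3.13), Lipa (3.02), Ctsd (2.95), Ctsz (2.75) and Ctsb (2.46). In NC PNAs the same genes had log2 fold changes of 3.57, 2.16, 1.59, 3.81 and 1.70. Unop nerve 1 had 4486 counts of Ctss and Unop nerve 2 had 2318, and both were far below the lowest graft, at 23737.

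Lower than in the Unop nerves in both graft groups were 6 genes: Smpd1, Arsa, Ctsf, Ids, Asah1 and Scarb2. In the single comparisons 28.6% (PEG-fused PNAs) and 32.3% (NC PNAs) of all genes tested were lower. Smpd1, whose product splits sphingomyelin, had 6711 and 6837 normalized counts in the Unop nerves, 3466, 3882 and 3802 in PEG-fused PNAs and 2909, 2758 and 3014 in the NC PNAs. Unop nerves were thus highest and NC PNAs lowest without overlap, with log2 fold changes of -0.87 ± 0.09 in PEG-fused PNAs (adjusted p = 6.36e-05, limma) and -1.23 ± 0.09 in the NC PNAs (adjusted p = 6.74e-06). Arsa followed, from 3001 and 3580 in the Unop nerves, with log2 fold changes of -0.76 and -0.87.

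Ctsf (cathepsin F) had 4678 and 4613 normalized counts in the Unop nerves, 3358, 4037 and 3583 in PEG-fused PNAs and 1856, 2162 and 2418 in the NC PNAs. Its 3 groups were in the same order as those of Smpd1, and the log2 fold change was -0.35 ± 0.13 in PEG-fused PNAs (adjusted p = 0.0432, limma) and -1.12 ± 0.13 in the NC PNAs (adjusted p = 9.36e-05). Ids was at 3210 and 3935 in the Unop nerves, 2382, 2789 and 2633 in PEG-fused PNAs and 1951, 1781 and 2118 in the NC PNAs, with log2 fold changes of -0.45 and -0.87.

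The others were Asah1 (acid ceramidase) and Scarb2, the receptor that carries β-glucocerebrosidase to lysosomes. Asah1 had 12158 and 12300 counts in the Unop nerves, 10398, 10297 and 9795 in PEG-fused PNAs and 8612, 9064 and 9581 in the NC PNAs (log2 fold changes -0.27 and -0.43). Scarb2 had 4079 and 4314 in the Unop nerves, 3172, 3154 and 3427 in PEG-fused PNAs and 3152, 2640 and 2942 in the NC PNAs (-0.37 and -0.53). Without Unop nerve 2, the genes lower in PEG-fused PNAs than in the Unop nerves were 2 (Smpd1 and Arsa) in place of 6.

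Lamp2, the membrane receptor of chaperone-mediated autophagy, was lower than in the Unop nerves in the NC PNAs by -0.58 ± 0.10 (adjusted p = 0.00118, limma) and was not called in PEG-fused PNAs (-0.18, 95% interval -0.41 to 0.05). Its counts were 20797 and 19174 in the Unop nerves, 18813, 17639 and 16475 in PEG-fused PNAs and 13858, 13159 and 13150 in the NC PNAs. The difference between the grafts was itself called (0.40 ± 0.09, adjusted p = 0.0138).

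**Figure D4:**
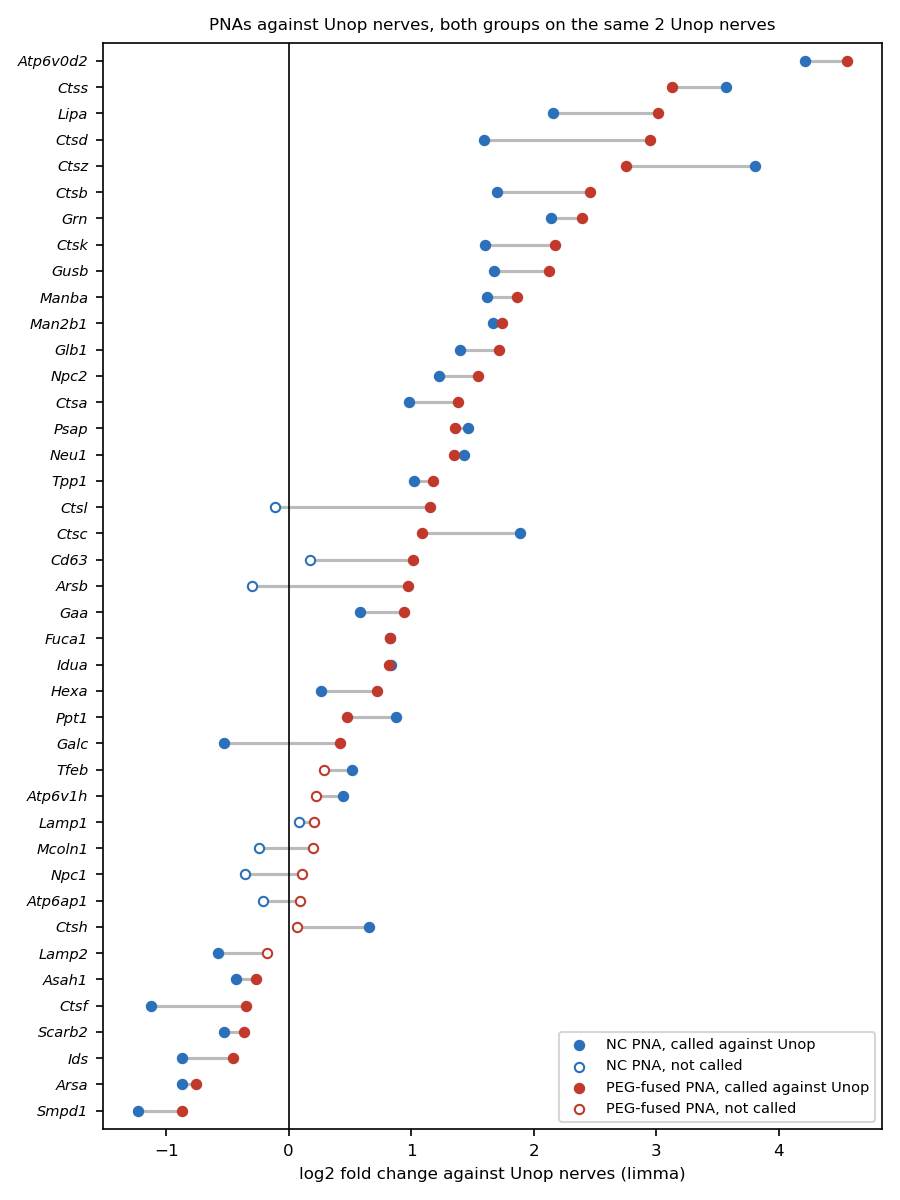
Log2 fold change against the 2 Unop nerves for PEG-fused PNAs (red) and NC PNAs (blue), in the order of the PEG-fused values, with filled points for genes called by limma. Atp6v0d2 is at the top (4.56 and 4.22) and Smpd1 at the bottom (-0.87 and -1.23), Ctsz, Ctss and Ctsc have the NC PNA to the right, and Galc has its points on both sides of 0.

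Further genes were counted from lists of 107 genes that are not members, of which 95 were tested. The lists hold other lysosomal hydrolases, membrane proteins, proton pump subunits and sorting genes. They also hold cystatins, MiT/TFE factors with their regulators, and autophagy genes, which are not all lysosomal. In PEG-fused against NC PNAs 21 (22.1%) were higher and 8 (8.42%) lower, beside 15% and 13.9% of all genes tested. The median log2 fold change of the 95 was 0.07, and by list it ran from -0.42 (4 cystatins) to 0.18 (17 hydrolases and cofactors). By list, 7 of 17 other hydrolases and cofactors were higher and 0 lower. Of 17 other membrane and transport proteins 3 were higher and 3 lower, and of 9 sorting genes 4 were higher and 1 lower. Of the 15 other proton pump subunits, 1 was higher in PEG-fused than in the NC PNAs. Against Unop nerves, 6 were higher and 0 lower in PEG-fused PNAs (29.1% and 28.6% of all genes). In the NC PNAs 7 were higher and 2 lower (32.2% and 32.3% of all genes). Of 4 cystatins 1 was lower, and of 16 MiT/TFE factors and regulators 2 were higher and 1 lower. Autophagy genes were 4 higher and 2 lower of 17 between the grafts. Against Unop nerves 5 of the 17 were higher and 8 lower in each graft group, beside the shares of all genes just given.

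Past a fold of 2 between the grafts were 3 of these 95 genes, each lower in PEG-fused PNAs. Of all genes tested, 7.14% were lower and 4.41% higher past it. Slc11a1, the metal transporter of phagosomes, had 1922, 2099 and 2113 normalized counts in PEG-fused PNAs, 5273, 8110 and 8311 in the NC PNAs, and 309 and 295 in the Unop nerves (log2 fold change of PEG-fused against NC PNAs -1.79 ± 0.17, adjusted p = 5.71e-04, limma). Cst7 encodes cystatin F, an inhibitor of cathepsin C among others, and had 1284, 833 and 1067 counts in PEG-fused and 3961, 9684 and 5771 in the NC PNAs (-2.53 ± 0.34, adjusted p = 0.00179). Tfec, a relative of Tfeb that is expressed in myeloid cells, had 421, 268 and 336 in PEG-fused and 1037, 1191 and 1133 in the NC PNAs (-1.73 ± 0.19, adjusted p = 8.97e-04).

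Markers of the cells that could carry these transcripts moved with the groups. Of the 14 macrophage genes, 9 were lower in PEG-fused than in the NC PNAs (13.9% of all genes tested were). The other 5 were not called. Among these was Cd68, which is also on the list of other lysosomal membrane and transport proteins. It had 20030, 20455 and 22451 normalized counts in PEG-fused and 14060, 18968 and 16383 in the NC PNAs, without overlap (0.36 ± 0.22, adjusted p = 0.264, limma). The sum of the 14 was 39057 to 63091 in the Unop nerves, below every graft. The sum of 11 genes listed for lipid-handling macrophages was highest in PEG-fused PNAs, at 931230 to 1057699. It was 666834 to 871888 in the NC PNAs and 230279 to 338354 in the Unop nerves. Without Spp1, which had 92747 to 133087 counts in PEG-fused PNAs, 12807 to 21037 in the NC PNAs and 125466 and 88731 in the Unop nerves, the sums of the grafts overlapped (821235 to 924612 in PEG-fused and 645796 to 859081 in the NC PNAs). Of these 11, 5 were higher in PEG-fused than in the NC PNAs (Gpnmb, Trem2, Spp1, Abca1 and Lgals3). Lpl and Fabp4 were lower in both graft groups than in the Unop nerves, so not every gene of this list followed the macrophage sum. In bulk RNA a change in the number of cells of a type and a change in RNA per cell cannot be told apart, and the part of these cells in the results above was not tested.

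Sums of the other lists were as uneven. Across 8 T cell genes the sum was 7410 to 11289 in PEG-fused PNAs, 27652 to 48452 in the NC PNAs and 1786 to 2147 in the Unop nerves, and all 8 were lower in PEG-fused than in the NC PNAs. Schwann cell genes, 10 in all and led by myelin genes, summed to 2893843 to 3419473 in the Unop nerves, 82204 to 93238 in PEG-fused PNAs and 29789 to 90610 in the NC PNAs. Of the 10, 3 were higher in PEG-fused than in the NC PNAs, namely S100b (1.42), Ngfr (1.45) and Sox10 (0.83, log2 fold changes), and 7 were without NC PNA 1. Ngfr, the receptor of Schwann cells that have lost axon contact, was at 15448 to 20293 counts in PEG-fused PNAs, 5706 to 7128 in the NC PNAs, and 1140 and 713 in the Unop nerves. Of the osteoclast list, Dcstamp was at 0 in all 8 libraries. The sum was 5453 to 9812 in PEG-fused PNAs, 5120 to 7529 in the NC PNAs and 2293 to 2801 in the Unop nerves. Of its 7 genes tested, 1 was higher and 3 lower in PEG-fused than in the NC PNAs, with a median log2 fold change of -0.46. Skeletal muscle genes summed to 776057 in NC PNA 1 and 280496 in NC PNA 3, against 12963 in NC PNA 2. Without NC PNAs 1 and 3 only NC PNA 2 is left, so calls of that fit are not read here. Over the 19 fits, which include it, the log2 fold change between the grafts was -1.27 to -0.94 for Ctsz and -0.91 to -0.69 for Ctsc. It was -0.69 to -0.51 for Ctsh and -0.61 to -0.30 for Ppt1. Between the grafts, 3 of 8 fibroblast genes were higher in PEG-fused PNAs. Lower were 5 of 6 adipocyte, 5 of 5 B and plasma cell, 3 of 5 neutrophil and 1 of 5 endothelial genes. Of all genes tested, 15% were higher and 13.9% lower. The part of these cells in the results was not tested either.

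**Figure D5:**
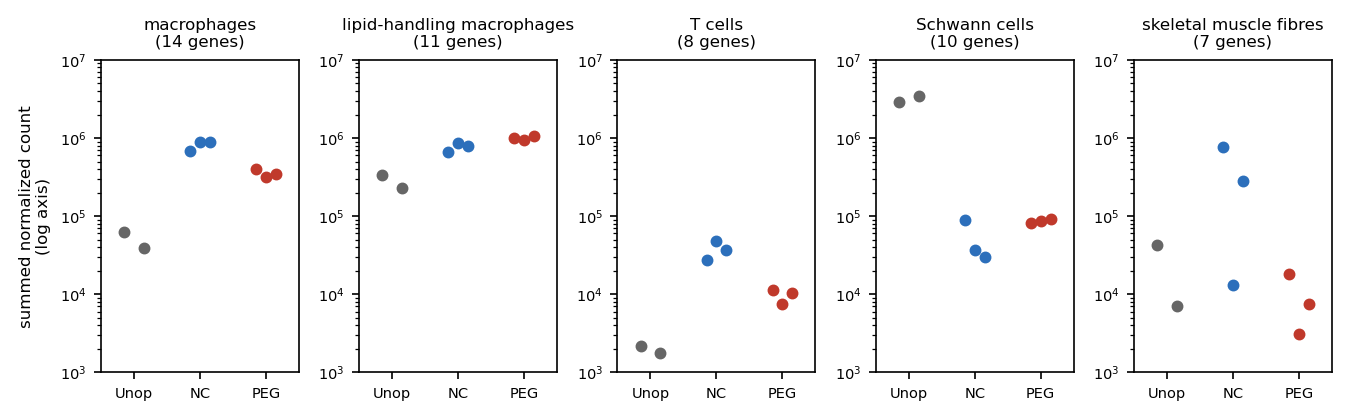
Summed normalized counts of marker genes of 5 cell types in each library (points), on a log axis that is the same in each panel. Macrophage and T cell sums are highest in the NC PNAs. The sum of the list for lipid-handling macrophages is highest in PEG-fused PNAs (the grafts overlap without Spp1, which is also high in the Unop nerves). Schwann cell sums are highest in the Unop nerves, and muscle sums are spread widely within NC PNAs.

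Libraries of a group differed little for most of the 41 genes. The coefficient of variation had medians of 8.40% among PEG-fused PNAs, 8.88% among NC PNAs and 11.3% among Unop nerves. It was largest for Atp6v0d2 in PEG-fused PNAs (33.9%), where PEG-fused PNA 3 had 782 counts and the others 436 and 471. PEG-fused PNA 3 was the highest of its group in 24 of the 41 genes, NC PNA 1 in 3 of 41, and Unop nerve 1 in 30 of 41. In Unop nerves the spread was widest for Ctss (45.1%), and the macrophage sum was also higher in Unop nerve 1 (63091) than in Unop nerve 2 (39057).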

How the data were processed

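Coding transcripts of 8 libraries were analysed. Per the paper's methods and the submitters' processing notes, the authors prepared stranded mRNA libraries, mapped reads to Rnor_6.0 with TopHat2, assigned them to genes with HTSeq and normalized the counts with DESeq2. The deposited signal is the normalized count, the read count divided by a size factor for the library. Strand settings of the counting were not given in the sources used here, so overlapping antisense genes may not be separated. The authors' deposited fold changes and p-values were not used.

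All normalized values (100%) were whole reads within 0.001 after division by 1 constant per library. The 16478 genes that reached 10 normalized counts in 2 or more libraries were fitted with limma 3.58.1 (R 4.3.3) on log2(normalized count + 1), with a mean-variance trend, 1 mean per group and 1 spread per gene shared by the 3 groups. This scale understates changes of low counts. P-values were adjusted over all genes tested (Benjamini-Hochberg), and a call is an adjusted p under 0.05. "Past a fold of 2" adds a log2 fold change above 1 or below -1. Each library is 1 animal. Alternatives were edgeR 4.0.16 and DESeq2 1.42.0 on the recovered reads, TMM scaling, a pseudocount of 8, no filter, a filter of 50 counts, fits of 2 groups alone, robust variance moderation, replicate number as a block, and each library left out. Leaving out NC PNAs 1 and 3 was added after seeing the data.

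The members, their roles and the lists were chosen with earlier results of these data known. Values per library are given for members past a fold of 2 between the grafts, the 6 largest and 6 smallest log2 fold changes of PEG-fused PNAs against Unop nerves, members lower than in the Unop nerves, and the extremes of each role between the grafts. Ctsk, Ctsc and the promoters shown were added after values were seen. Genes of the lysosomal, regulator and autophagy lists that are not members were named where they passed a fold of 2 between the grafts.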

Additional observations from a re-analysis of the deposited data

How the results depend on the processing

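Across 18 alternatives, 2082 of 2214 log2 fold changes (41 genes, 3 comparisons) kept direction and call, 9 gained the call, 15 changed sign and the rest lost the call. None of those 15 was called by limma at first. In some alternatives the fold change could not move, and only the call could. These were fits without a library of the group not compared, fits of 2 groups alone, the robust fit and the other filters. They are counted in the 2214 and in the 19 fits of each comparison. Between the grafts, TMM scaling put Fuca1 at 0.007 by edgeR and 0.0128 by limma, and leaving out NC PNAs 1 and 3 put Man2b1 at -0.11. With each library left out in turn, Fuca1 ranged from -0.0949 to 0.0764, Man2b1 from -0.0849 to 0.17, Idua from -0.21 to 0.0862 and Neu1 from -0.17 to 0.0523 between the grafts. In the same way Ctsh ranged from -0.0767 to 0.22 and Npc1 from -0.0804 to 0.30 in PEG-fused PNAs against Unop nerves, and Ctsl from -0.47 to 0.25 in NC PNAs against Unop nerves.

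Genes higher in PEG-fused than in NC PNAs numbered 19, and 10 to 17 with a library left out (10 without PEG-fused PNA 3, 11 without PEG-fused PNA 2). These fits use fewer samples. The count fell further without NC PNAs 1 and 3, which leaves 1 NC PNA. The 1 gene lower past a fold of 2 became 0 to 1. Genes lower in PEG-fused PNAs than in the Unop nerves numbered 6, and 2 to 6 with a library left out (2 without Unop nerve 2). The median log2 fold change in NC PNAs against Unop nerves was 0.83, 0.62 to 0.92 with a library left out (0.62 without Unop nerve 2) and 0.98 without NC PNAs 1 and 3. All other counts over the 41 genes stayed within 1.5 times under the alternatives run. Over all genes tested, 2477 were higher between the grafts, 1363 without PEG-fused PNA 2 and 1596 without PEG-fused PNA 3. Of the 95 further genes of the lysosomal, regulator and autophagy lists, up to 22 were higher and 4 to 11 lower between the grafts. Fewer than the 21 called higher at first were called without NC PNAs 1 and 3, which leaves 1 NC PNA. Of the marker lists, macrophage genes lower in PEG-fused PNAs numbered 3 to 10, Schwann cell genes higher 3 to 7, fibroblast genes higher 0 to 7 and B and plasma cell genes lower 1 to 5, while all 8 T cell genes were lower in every fit.

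Deviations of same-numbered libraries correlated at -0.05 to 0.109 between the grafts (3 pairs) and at 0.136 to 0.157 between each graft group and the Unop nerves (2 pairs each). No source ties the numbers to shared animals, litters or days, so they were not taken as pairs. With a replicate block 14 genes were higher and 3 lower between the grafts, 25 and 5 in PEG-fused PNAs against Unop nerves, and 25 and 9 in NC PNAs against Unop nerves.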
